A study of Mus musculus with 11 samples.

Results

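Interferon-stimulated genes were followed across the cell types of the mouse cerebral vasculature. The list held 37 gene symbols, chosen by name as genes that type I interferon induces, and 35 of them were analysed among the 32287 features of the count tables. Mx1 and Mx2 were not analysed here. The measurement was single-cell RNA sequencing of cells isolated from brain vessels with CD31 antibodies, and unique molecular identifier (UMI) counts of each gene were summed per mouse within each cell class. Levels are given as CPM, the count of a gene scaled to a total of 1000000 UMIs of that class in that mouse, and differences as log2 values from edgeR's quasi-likelihood test with Benjamini-Hochberg adjustment over all genes tested.

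All mice carried a human NOTCH3 transgene, were untreated and came from both sexes. In 6 mice, named R182C-TgN3, the transgene held the R182C variant of the vascular disease CADASIL, and in 5 mice, named WT-TgN3, it was wild type. The R182C-TgN3 mice were 3 animals of 6 months and 3 of 9 months, and the WT-TgN3 mice were 3 animals of 6 months and 2 of 9 months. The labels gave 4 preparation batches. Batches A and B held the 9-month mice and batches C and D the 6-month mice, so age and batch cannot be told apart. Each library came from 1 mouse. The promoter that drives the transgene is not given in the sources used here.

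Interferons are secreted when a cell senses foreign or misplaced nucleic acid. Type I interferon binds the receptor made of Ifnar1 and Ifnar2, the kinases Jak1 and Tyk2 become active, and a complex that holds Stat2 and Irf9 enters the nucleus and binds an interferon-stimulated response element in the promoters of its target genes. The targets include antiviral effectors such as the Ifit proteins, the Oas enzymes and viperin (Rsad2), the ubiquitin-like modifier Isg15, sensors such as Ifih1, and members of the pathway itself such as Irf7, Irf9 and Stat2. In brain vessels the endothelial cells are exposed to interferon from the blood as well as from the tissue, and microglia are the resident macrophages of the tissue.

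The response element is visible in the promoter letters. In the RefSeq promoter windows of build GRCm38.p6, which run from 250 bases before to 50 bases after a transcript's start, the letters GAAANNGAAA stood on either strand in 18 of the 30 members with a promoter in the table (60%), against 3.99% of 27025 genes. The shorter spaced motif TTCNNNGAA, read on the same windows, stood in 7 of the 30 members (23.3%) and in 9.55% of all genes. The stretches below are those of 6 members whose levels are described later, read on the strand of the gene from 30 bases before the first match to 30 bases after the last. Capitals mark GAAANNGAAA or its reverse complement, and overlapping matches run together.
Isg15 (chr4:156200845-156200926, minus strand): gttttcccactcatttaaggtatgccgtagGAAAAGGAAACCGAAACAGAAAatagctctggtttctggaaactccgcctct
Ifit1 (chr19:34640755-34640843, plus strand): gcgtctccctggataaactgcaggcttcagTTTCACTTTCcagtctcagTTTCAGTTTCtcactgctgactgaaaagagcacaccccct
Ifit3 (chr19:34583343-34583446, plus strand): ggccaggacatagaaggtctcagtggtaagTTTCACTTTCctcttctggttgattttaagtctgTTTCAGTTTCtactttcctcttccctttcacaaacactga
Bst2 (chr8:71537557-71537632, minus strand): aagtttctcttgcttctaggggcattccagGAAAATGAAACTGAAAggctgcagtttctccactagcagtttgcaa
Rsad2 (chr12:26456533-26456602, minus strand): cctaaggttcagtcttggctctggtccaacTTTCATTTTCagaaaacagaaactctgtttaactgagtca
The Isg15 window held 3 overlapping matches, the first 78 bases before the start, and the Ifit1 window held 2 separate ones, the first 104 bases before it. The Ifit3 stretch was letter for letter that of its neighbour Ifit3b (chr19:34607739-34607842), which is the sixth member shown. A match is a description of the letters and not evidence of binding, and the promoters of Oas2, Parp14, Rtp4, Usp18 and Zbp1 were not analysed here. In the comparisons with capillary endothelial cells described below, the 17 tested members with GAAANNGAAA and the 12 without are given as medians with no test. The median log2 difference with and without the letters was -2.29 and -2.43 in microglia, 0.29 and 0.46 in arterial cells, and -0.03 and -0.34 in venous cells.

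There were 66658 barcodes, of which 61625 had enough genes and few enough mitochondrial counts, 3279 of those were removed as scored doublets, and 58346 cells were kept, from libraries of 17550806 to 64215050 UMIs. Cells were classed by marker genes, none of which is a member, and 43100 cells fell in the classes described. These were 9768 capillary, 7002 arterial, 6590 venous and 2152 fenestrated endothelial cells, 13703 microglia, 172 perivascular macrophages, 2162 smooth muscle cells (SMC), 570 pericytes and 981 lymphocytes. A further 11740 endothelial cells lay between subtypes and were left out. The subtypes are ranges of a score, and 4151 of the capillary cells (42.5%) and 1995 of the venous cells (30.3%) lay near the cut, against 585 of the microglia (4.27%). The defining endothelial markers summed to 172 CPM in microglia and 336 CPM in SMC, against 12430 to 13292 CPM in fenestrated and venous endothelial cells, and the microglial markers summed to 8377 CPM in microglia. Of 65086 distinct barcode sequences, 966 occurred in more than 1 library. In these summed counts, fewer responding cells and less RNA per responding cell cannot be told apart, and the split by single cells is given further on.

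Endothelial cells and perivascular macrophages held the highest summed levels of the interferon-stimulated genes, and SMC and microglia the lowest. Summed over the 35 members, the level was 4411 ± 427 CPM in arterial endothelial cells (SD, n = 11 mice), 3398 ± 384 in venous, 3245 ± 415 in capillary and 3236 ± 562 in fenestrated endothelial cells. The same sum was 3155 ± 1008 CPM in perivascular macrophages, where only 3 mice had at least 20 such cells. It was 1315 ± 206 CPM in pericytes, 967 ± 139 CPM in lymphocytes (n = 10 mice), 743 ± 62.5 CPM in microglia and 575 ± 76.9 CPM in SMC. The lowest arterial mouse, at 3734 CPM, lay above the highest microglial mouse, at 818 CPM, and neighbouring classes such as venous, capillary and fenestrated cells overlapped. By mean level, arterial endothelial cells were the highest class for 19 of the 35 members, perivascular macrophages for 9, fenestrated cells for 4, lymphocytes for 2 and capillary cells for 1. SMC were the lowest class for 21 members. The sums lean on abundant members such as Ifitm3. The median member stood at 79.3 CPM in arterial, 74.8 in capillary and 63.4 in venous cells, so by this measure venous lay below capillary cells. It was 48.4 CPM in fenestrated cells and 46.2 CPM in macrophages. Macrophages were not high for every member: Ifit1 was at 0, 11.0 and 20.2 CPM in the 3 mice, below the lowest capillary mouse at 76.0 CPM.

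**Figure D1:**
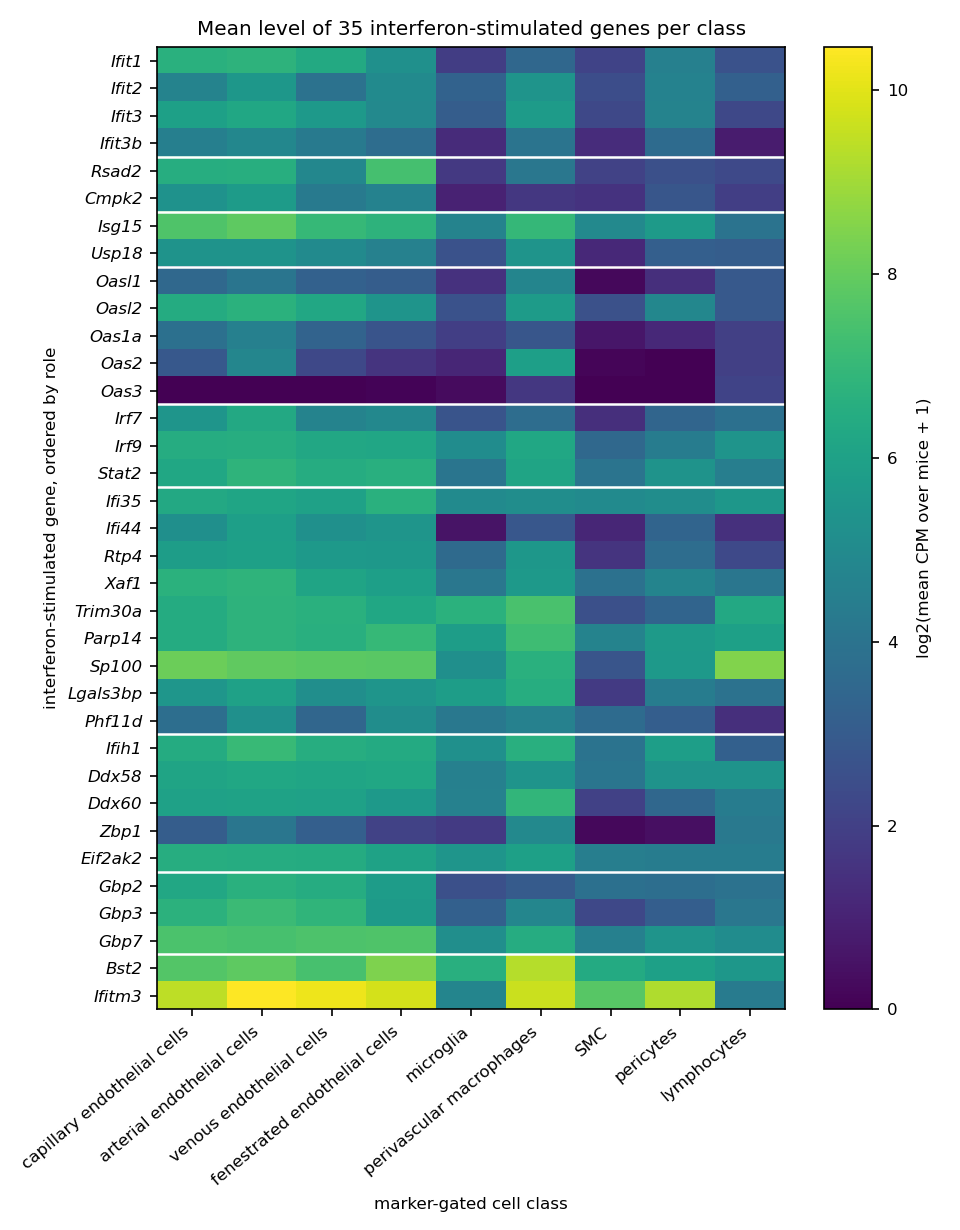
Mean level of each of the 35 interferon-stimulated genes (rows, ordered by role) in 9 cell classes (columns), as log2(mean CPM + 1) over mice. The 4 endothelial columns and the macrophage column are brighter than those of microglia and SMC for most genes, and Ifitm3 reaches 1416 CPM in arterial endothelial cells.

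Isg15, a ubiquitin-like protein that is attached to other proteins after interferon exposure, was clearly higher in endothelial cells than in microglia. In capillary endothelial cells its lowest, median and highest mouse were at 140, 186 and 272 CPM, and in arterial cells at 175, 231 and 310 CPM. Venous cells lay at 93.2, 126 and 185 CPM, and fenestrated cells at 67.9, 94.5 and 249 CPM. In microglia the same 3 values were 16.3, 22.4 and 40.9 CPM. No microglial mouse reached the lowest mouse of any endothelial subtype. SMC ranged from 18.5 to 41.4 CPM, overlapping microglia, and pericytes from 6.68 to 113 CPM, at a mean of 50.8 ± 39.1 CPM (SD, n = 11). Perivascular macrophages were at 33.0, 109 and 228 CPM in their 3 mice, so they overlapped both microglia and endothelial cells.

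Ifit3, an RNA-binding antiviral protein, followed the same order at lower counts, with medians of 58.5 CPM in capillary, 72.8 in arterial, 48.8 in venous and 26.2 in fenestrated endothelial cells and 5.83 in microglia. Microglia ran up to 16.4 CPM in 1 mouse, above the lowest fenestrated mouse at 8.19 CPM, so those groups overlapped. Irf7, the transcription factor that amplifies interferon production, ranked endothelial subtypes more sharply: from 57.6 to 102 CPM in arterial, 28.4 to 55.1 in capillary and 17.2 to 36.7 in venous cells. The arterial and capillary ranges did not overlap. In microglia Irf7 ran from 3.17 to 7.33 CPM. Stat2, a subunit of the response complex, had medians of 72.2 CPM in capillary and 109 CPM in arterial cells and 14.8 CPM in microglia. In the perivascular macrophages of 3 mice, Ifit3 was at 39.1, 43.9 and 73.9 CPM and Stat2 at 39.1, 80.6 and 87.9 CPM. Both thus reached endothelial levels there, while Irf7 was at 0, 13.4 and 23.5 CPM.

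The membrane restriction factors Bst2 (tetherin, which holds budding virus at the cell surface) and Ifitm3 (which blocks viral fusion) were laid out differently. Bst2 was highest in perivascular macrophages, at 527, 641 and 699 CPM in the 3 mice, followed by fenestrated endothelial cells, whose lowest, median and highest mouse were at 254, 336 and 509 CPM. Capillary cells ranged from 148 to 287 CPM and microglia from 76.9 to 114 CPM. Ifitm3 lay at 1040, 1398 and 1911 CPM in the lowest, median and highest mouse in arterial cells and at 534, 656 and 903 CPM in capillary cells, but at 16.4, 27.8 and 34.7 CPM in microglia. In pericytes it ran from 398 to 799 CPM and in SMC from 164 to 328 CPM, so that it stayed high in mural cells in which most members were low.

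**Figure D2:**
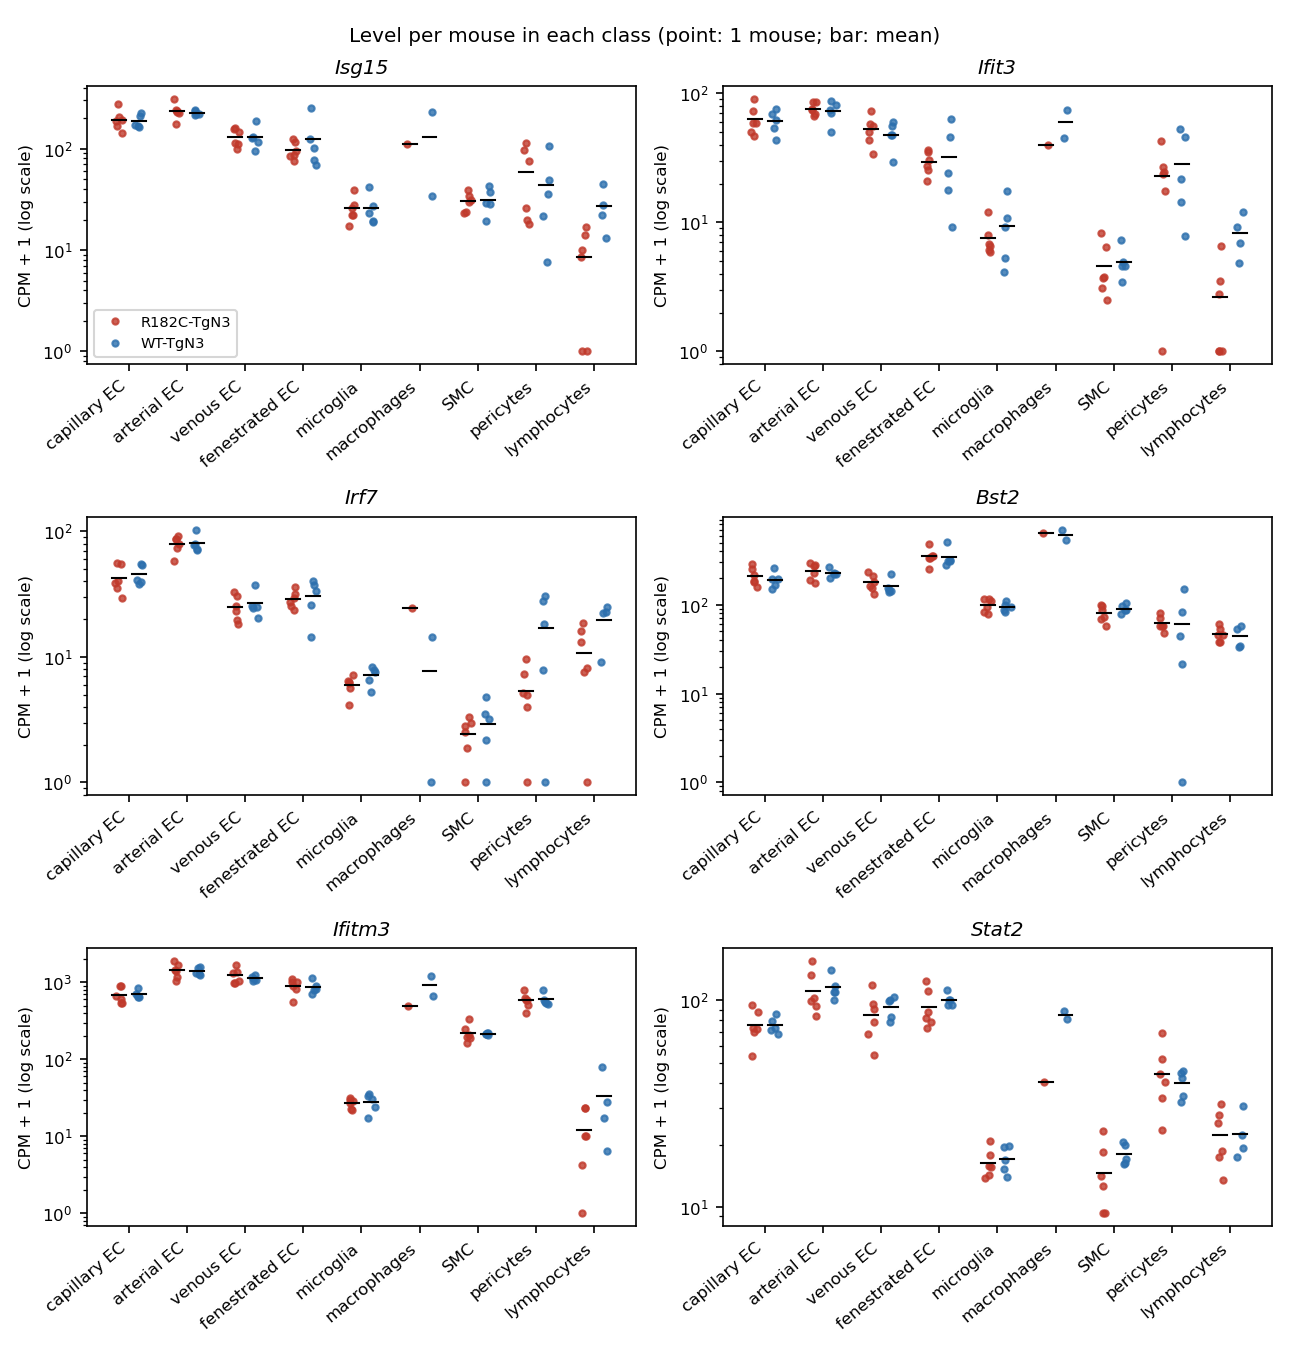
Levels of Isg15, Ifit3, Irf7, Bst2, Ifitm3 and Stat2 in each mouse (1 point per mouse, log axis of CPM + 1), by cell class and genotype. Within every class the points of R182C-TgN3 and WT-TgN3 mice overlap where both genotypes have several mice. Classes differ, as for Ifitm3, which was at 0 CPM in a lymphocyte sample and at 1911 CPM in an arterial one.

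Microglia were compared with capillary endothelial cells of the same 11 mice. Of 34 members tested, 31 were lower in microglia, 3 were higher and none was left uncalled, with a median log2 difference of -2.24. Most genes differed between these classes, since 45.3% of the 11138 genes tested were lower and 42.1% higher, with a median of -0.05 over all genes. DESeq2 called all 34, against 84.8% of all genes. Expressed as log2 differences, the lower members with the smallest p-values were Ifitm3 (-4.62 ± 0.09 SE, adjusted p = 1.11e-20), Gbp3 (-3.56), Rsad2 (-5.05 ± 0.12), Gbp2 (-3.81), Ifit1 (-4.97 ± 0.13) and Xaf1 (-2.51). Rsad2 encodes viperin, which makes a chain-terminating nucleotide, and Gbp2 and Gbp3 are guanylate-binding GTPases that act against intracellular pathogens. Isg15 was lower by a log2 difference of -2.82 ± 0.10, Irf7 by -2.89 and Stat2 by -2.17, and the smallest of these named differences was that of Bst2, at -0.96.

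The 3 members higher in microglia were Phf11d (0.49 ± 0.09), Lgals3bp (0.42 ± 0.07), a secreted glycoprotein, and Trim30a (0.35 ± 0.06), a ubiquitin ligase of innate signalling. By role, all 4 Ifit genes, both ISG15 conjugation genes (Isg15 and the deconjugating protease Usp18), all 4 tested Oas genes, all 5 sensors, all 3 transcription factors and all 3 GTPases tested were lower in microglia. Free RNA in the droplets was gauged from genes of the other class. The endothelial genes Slco1a4, Abcb1a and Pltp reached 0.479% to 1.02% of their capillary level in microglia, and none of 34 members was at or below that share. All 10 dissociation stress genes, such as Fos, Jun and Egr1, were higher in microglia than in capillary cells (median log2 difference 1.27), and their part in the member differences was not tested.

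The rest of the pathway did not follow the members. Counting receptors, kinases, transcription factors, the sensing pathway and inhibitors together, 23 of 31 tested genes were higher in microglia and 8 lower, with a median log2 difference of 1.21. All 10 genes of the sensing pathway tested, which includes Tlr7, Tlr9, Mavs and Myd88, were higher. Of the receptors, Ifnar1 was lower by a log2 difference of -2.35 (48.5 ± 6.05 CPM in microglia against 267 ± 37.4 in capillary cells) and Ifnar2 by -0.87, while Ifngr1, a subunit of the interferon gamma receptor, was higher by 2.92. Irf1, a factor induced by both interferon types, was lower by a log2 difference of -0.35.

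Perivascular macrophages, the macrophages of the space around vessels, were compared with microglia in the 3 mice that had enough of both. Of 27 members tested, 20 were higher in macrophages and none lower, with a median log2 difference of 1.71. Among all 9266 genes, 9.26% were higher and 13.1% lower. DESeq2 called 18 members and 13.5% of all genes. The leading members were Ifitm3 (4.89 ± 0.22), Bst2 (2.79 ± 0.20), Oas2 (5.11 ± 0.61), which makes the 2-5A messenger that activates RNase L, Ddx60 (2.41 ± 0.37), Isg15 (2.21 ± 0.34) and Oasl2 (3.53 ± 0.60). The fit drew its spread from all genes together. With 3 mice its SE and p-values do not measure how a single gene varied between them. Ifitm3 stood at 492 CPM in R182C-TgN3 1, 659 in WT-TgN3 2 and 1209 in WT-TgN3 4. Of the stress genes, 2 were higher and 5 lower in macrophages, and their part was not tested. The class held 172 cells over all mice and at most 30 in a mouse, and only the cells of these 3 mice entered the comparison. Without WT-TgN3 4 the number of higher members was 10 and Isg15 no longer passed (1.39, adjusted p = 0.0536).

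Among endothelial subtypes, arterial cells were higher than capillary cells for 25 of 34 members and lower for 2, with a median log2 difference of 0.34. Of all 10767 genes tested, 28.2% were higher and 30% lower, with a median of -0.03. DESeq2 called 25 members and 47.1% of all genes in either direction. The differences were small beside those between microglia and capillary cells. The named higher members were Ifitm3 (1.03 ± 0.03), Phf11d (1.53 ± 0.07), Oas2 (2.12 ± 0.10), Stat2 (0.59 ± 0.04), Ifih1 (0.62 ± 0.04), the sensor of long double-stranded RNA, and Irf7 (0.90 ± 0.05). Isg15 was higher by 0.29 ± 0.04 and Ifit3 by 0.28 ± 0.06. The 2 lower members were Sp100, a nuclear body protein (-0.19 ± 0.04), and Ifi35 (-0.18 ± 0.05). Rsad2 was at 0.06 ± 0.05 (adjusted p = 0.278).

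Venous cells differed from capillary cells in the opposite direction. Of 34 members 21 were lower and 5 higher, with a median of -0.24 against 0.00 for all genes, of which 28.3% were lower and 28.3% higher. DESeq2 called 25 members and 47.1% of all genes. Rsad2 fell by 1.69 ± 0.08 on the log2 scale (adjusted p = 3.09e-14), from a mean of 91.0 CPM in capillary cells to 28.1 CPM in venous cells, where its mice ran from 20.4 to 42.9 CPM. Cmpk2, the nucleotide kinase encoded beside Rsad2, was lower by a log2 difference of -1.10, Irf7 by -0.80, Xaf1 by -0.62, Isg15 by -0.55 and Ifi35 by -0.32. The 5 higher members were Ifitm3 (0.77 ± 0.05), Trim30a (0.23), Stat2 (0.20), Gbp2 (0.20) and Parp14 (0.17). All 4 Ifit genes and all 4 Oas genes tested were lower, and none of the 5 sensors passed the test in either direction.

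Fenestrated endothelial cells, the permeable type of the choroid plexus and similar sites, were mixed. Of 33 members tested 18 were lower and 7 higher than in capillary cells, with a median of -0.31, against 27.2% lower and 27.7% higher among 9808 genes. DESeq2 called 25 members and 51.3% of all genes. Phf11d (1.39 ± 0.12), Bst2 (0.80 ± 0.07), Parp14 (0.58 ± 0.07), Stat2 (0.36 ± 0.06), Rsad2 (0.83 ± 0.14) and Ifitm3 (0.34 ± 0.07) were among the higher members. Rsad2 thus stood at 165 CPM on average in fenestrated cells, with mice from 84.1 to 250 CPM that did not overlap the venous range given above. Ifit1 (-1.46 ± 0.14), Xaf1 (-0.80), Gbp3 (-0.99), Isg15 (-0.84), Usp18 (-0.82) and the RNA-dependent kinase Eif2ak2 (-0.49) were lower.

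**Figure D3:**
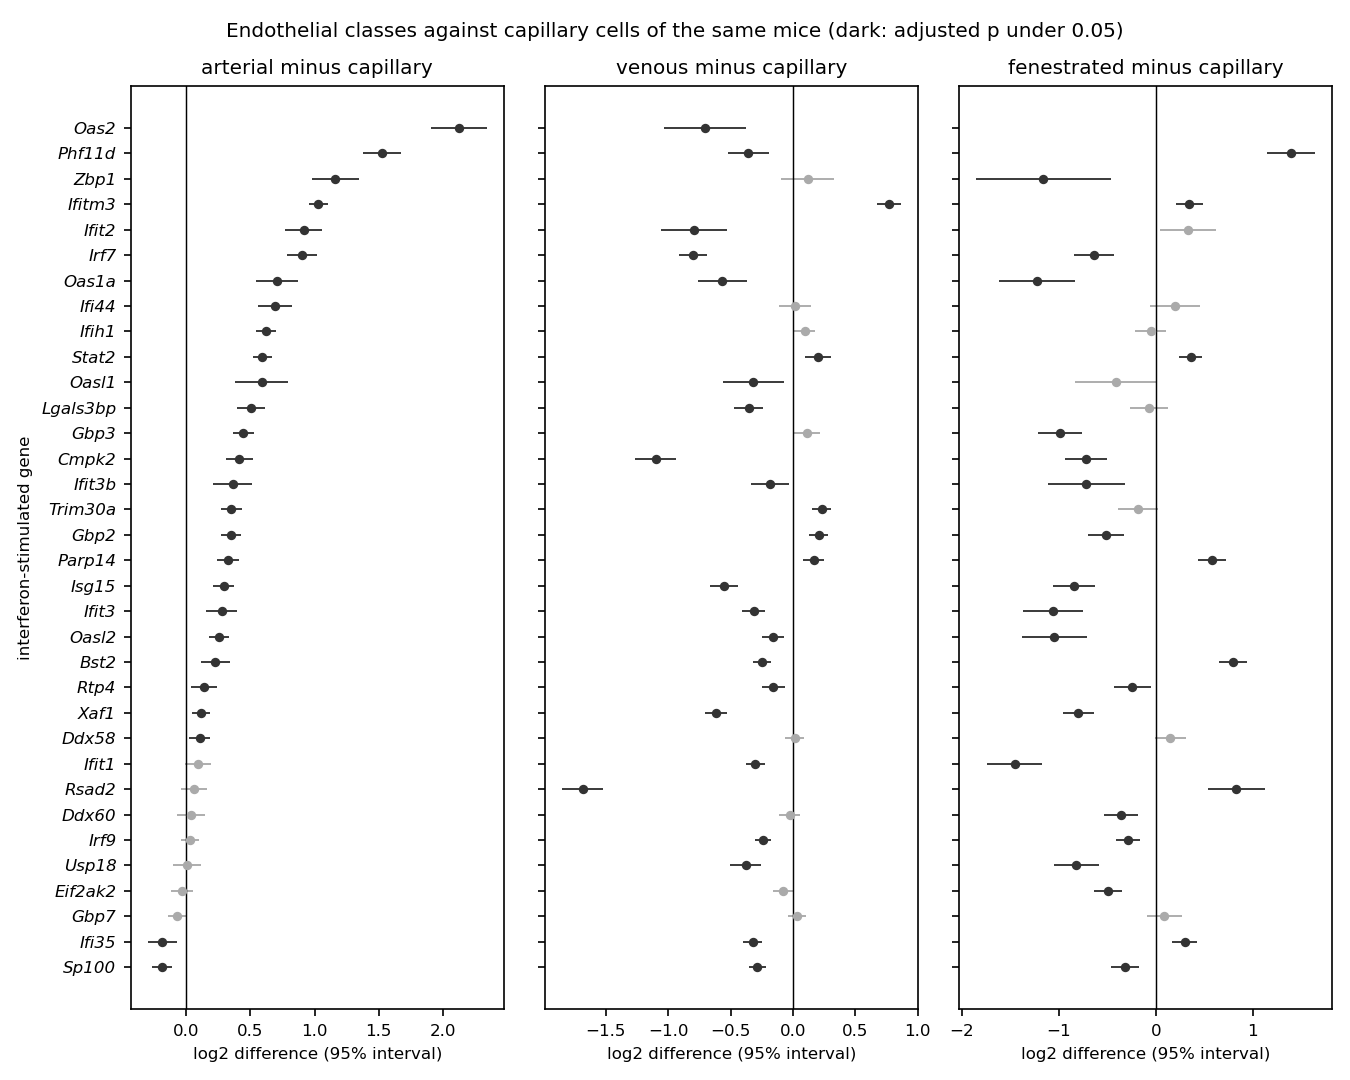
Log2 differences of each member in arterial, venous and fenestrated endothelial cells relative to capillary cells, with 95% intervals; dark points have an adjusted p under 0.05 in edgeR's test. Arterial points lie mostly right of 0 (25 higher, 2 lower), and venous and fenestrated points mostly left (21 and 18 lower).

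The 3 endothelial comparisons share the capillary samples, so their values are given side by side and not tested against each other. Mouse by mouse, the order arterial over capillary over venous held in 11 of 11 mice for Irf7, Oas1a, Cmpk2, Lgals3bp and Phf11d. It held in 10 mice for Isg15 and in 9 for Ifit3. Many members did not follow it. The order held in 2 mice for Stat2 and Ifih1, in 1 for Ifi35, Trim30a, Parp14, Gbp2, Gbp7 and Sp100, and in 0 for Ifitm3. Oas1a and Phf11d are uncertain as single genes, since 42.3% of the 90-base windows in the last 500 bases of Oas1a transcripts are shared with Oas1g and 9.19% of those of Phf11d with its neighbours, and Ifit3 shares 6.57% with Ifit3b. The dissociation stress genes moved as well: all 10 were higher in arterial and in venous than in capillary cells (median log2 differences 0.72 and 0.84), and 7 were higher and 1 lower in fenestrated cells. Their part in the member differences was not tested. Of the receptor genes, Ifnar1 was lower than in capillary cells by a log2 difference of -0.50 in arterial, -0.50 in venous and -2.36 in fenestrated cells. Irf1 was higher by 0.90 in arterial, 1.78 in venous and 1.38 in fenestrated cells.

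In mural cells, which wrap the endothelial tube, the members were low. Pericytes had 30 of 32 tested members lower than capillary endothelial cells and none higher, with a median log2 difference of -2.17, against 28.4% lower and 23.5% higher among 9124 genes. DESeq2 called 30 members and 48.9% of all genes. The named members were Sp100 (-2.44 ± 0.15), Gbp3 (-3.65 ± 0.23), Rsad2 (-4.09 ± 0.28), Gbp7 (-2.30), Trim30a (-3.38 ± 0.25) and Xaf1 (-1.98). Ifitm3 differed least among the members followed in every class, at -0.33 ± 0.10 (adjusted p = 0.00661). The pericyte classes were small, 21 to 141 cells per mouse, and the endothelial reference genes Slco1a4, Abcb1a and Pltp reached 1.63%, 1.76% and 6.62% of their capillary level there. Oas2 had no pericyte UMI, and Rsad2 at 6.48% and Zbp1 at 6.50% of their capillary level lay below the share of Pltp and above those of the other references. Free RNA and expression in pericytes cannot be told apart for these members. The limit depends on the reference genes. The endothelial markers summed to 885 CPM in pericytes against 17390 CPM in capillary cells, and the capillary markers to 1308 against 6454 CPM. By the capillary markers it also covers members such as Irf7 (17.1% of its capillary level) and Gbp3 (8.23%). Whether pericytes express those markers was not tested. Of the stress genes, 8 of 10 were lower and 1 was higher in pericytes than in capillary cells (median log2 difference -1.47), and their part was not tested.

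Few members had enough counts to compare SMC with pericytes. Of 9 tested, 6 were lower in SMC and 1 higher, with a median of -0.82, against 27.2% lower and 28.6% higher among 6092 genes. DESeq2 called 6 members and 51.9% of all genes. Sp100 (-3.28 ± 0.45), Ifih1 (-1.87 ± 0.25), Ifitm3 (-1.19 ± 0.11), Stat2 (-1.26 ± 0.21), Parp14 (-0.82 ± 0.19) and Gbp7 (-0.52 ± 0.22, adjusted p = 0.0442) were lower and Bst2 (0.87 ± 0.20) was higher. The count was 3 lower members without WT-TgN3 1, and Bst2 stood at 0.18 (adjusted p = 0.447) when classes were taken from unsupervised clusters. Of the stress genes, 9 of 10 were higher in SMC than in pericytes, and their part was not tested.

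Lymphocytes, of which 717 were B cells and 264 T or NK cells, were mixed against microglia. Of 25 members tested 9 were higher and 8 lower, with a median of 0.10, and among 9308 genes 30.9% were higher and 37.3% lower, so the members' shares were near the background. DESeq2 called 15 members and 66.4% of all genes. Sp100 (3.46 ± 0.10), Zbp1 (2.89 ± 0.28), a sensor of Z-form nucleic acid, Gbp2 (1.70), Irf7 (1.46 ± 0.29), Gbp3 (1.21) and Ddx58 (1.03), which encodes the RNA sensor RIG-I, led the higher members. Phf11d (-3.20), Ifih1 (-1.88), Lgals3bp (-1.85), Rtp4 (-1.66), Bst2 (-1.06) and Eif2ak2 (-0.92) led the lower ones. Of the stress genes, 7 of 10 were lower in lymphocytes and none was higher, and their part was not tested. Within lymphocytes Isg15 averaged 42.1 ± 14.3 CPM in T or NK cells (n = 6 mice) and 2.95 ± 3.70 CPM in B cells (n = 9 mice).

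**Figure D4:**
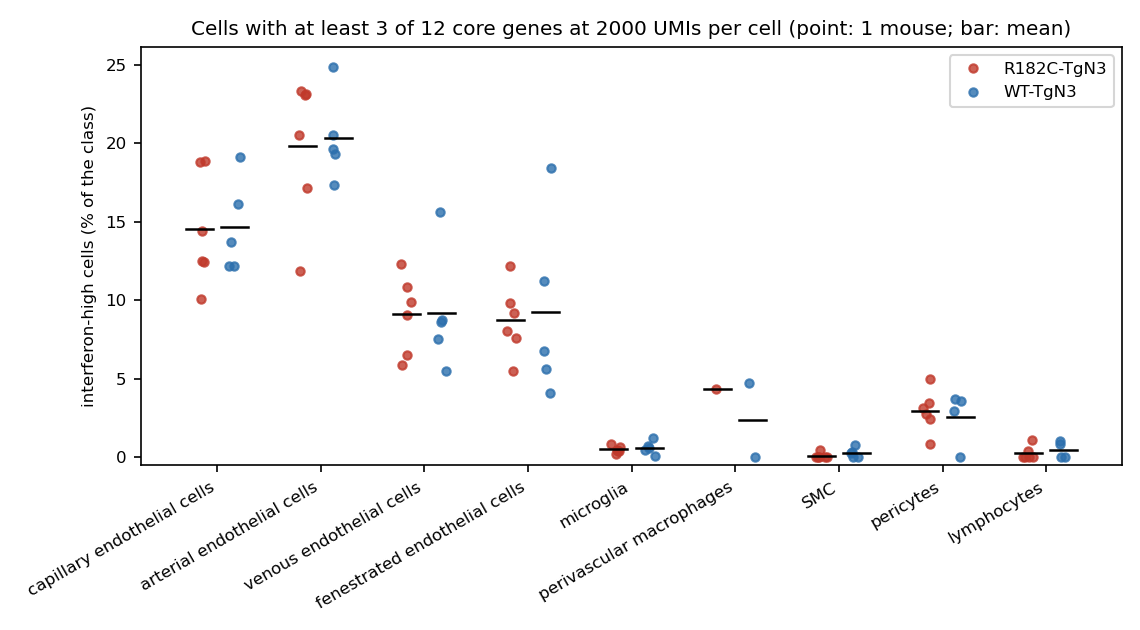
Percentage of cells with at least 3 of 12 core interferon-stimulated genes after thinning each cell to 2000 UMIs, 1 point per mouse, by class and genotype. Endothelial classes lie above the others, with pooled shares of 15.1% in capillary and 20.1% in arterial cells against 0.581% in microglia, and WT-TgN3 5 has the highest capillary point at 19.1%.

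The members were also counted in single cells. Each cell was thinned to 2000 UMIs, which left out 590 capillary cells and 1833 microglia, and a cell was called interferon-high if it held at least 3 of 12 core members (Ifit1, Ifit2, Ifit3, Ifit3b, Rsad2, Isg15, Usp18, Oasl1, Oasl2, Cmpk2, Irf7 and Ifi44). The call is a range on a score and not a cell type. The share called rises with the level per cell as well as with the number of responding cells, so it does not separate them. By this call 15.1% of capillary cells (1383 of 9178), 20.1% of arterial, 9.38% of venous and 10.2% of fenestrated cells were interferon-high. In capillary cells they carried 56.1% of the core UMIs, and 41.9% of the cells held no core UMI. The same counts chose these cells, so a large share follows from the call and was not compared with an even spread over cells. In microglia 0.581% of cells (69 of 11870) were interferon-high, and 16 of them held 6 or more core members.

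The share called was lower in all other classes than in endothelial cells, and how much of it is background was not tested. SMC, with a median of 7936 UMIs per cell before thinning, had 0.190% of cells called (4 of 2101), against 0.581% in microglia with a median of 5022. Perivascular macrophages had 3 of 143 cells called (2.10%), pericytes 12 of 475 (2.53%) and lymphocytes 4 of 938 (0.426%). The microglial share thus lay below those of macrophages and pericytes. Without thinning the shares were 34.3% in capillary, 52.7% in arterial, 43.6% in venous and 29.4% in fenestrated cells and 1.58% in microglia, and the venous share then lay above the capillary one, whose median depth was 4260.5 UMIs against 6914.5 in venous cells. At 1000 UMIs they were 5.80%, 7.86%, 3.05%, 3.20% and 0.268%. Interferon-high capillary cells had a median of 4320 UMIs against 4428 in the other capillary cells and a median of 74 against 76 endothelial marker UMIs, and their dissociation stress genes took 0.772% against 0.855% of the UMIs. Interferon-high microglia held a median of 1 endothelial marker UMI, as did other microglia, and 37 against 46 microglial marker UMIs.

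Of the ligand genes, Ifnb1, which encodes interferon beta, had UMIs in 32 of 13703 microglia (0.234%), 80 UMIs in all, from 8 of the 11 mice, and 16 of those cells with 43 UMIs came from R182C-TgN3 1. It was found in 2 macrophages and in 0 of 9768 capillary cells, which allows a share of up to 0.0307% of cells with an Ifnb1 UMI, by counting error alone, and sets no limit on the share of cells that express the gene. Ifng, the gene of interferon gamma, had UMIs in 71 of 981 lymphocytes (7.24%), 282 UMIs in all. Of these UMIs, 281 were in T or NK cells and 1 in B cells. Ifna2, Ifna4 and Ifna5 had 0 UMIs in microglia.

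The question of the study's design was whether R182C-TgN3 and WT-TgN3 mice differ. None of the tested interferon-stimulated genes was called in the 9 classes, of which perivascular macrophages had 1 R182C-TgN3 mouse and pericytes 1 tested member, so that these classes say nothing about whether the genotypes differ there. In capillary endothelial cells 0 of 34 members were called by edgeR's test or by DESeq2, and 0% of the 10752 genes tested were called. At an unadjusted p under 0.05 there were 0 members and 2.25% of all genes. Isg15 ran from 140 to 272 CPM in R182C-TgN3 and from 164 to 223 CPM in WT-TgN3 mice, a log2 difference of 0.10 with a 95% interval from -0.21 to 0.41. Ifit3 differed by 0.10, Irf7 by -0.02, Stat2 by 0.03, Bst2 by 0.20 and Ifitm3 by 0.02. The 95% intervals of all 34 members lay within a 2-fold difference either way, so a larger difference lay outside the intervals. The smallest p-values were those of Zbp1 (0.41 ± 0.24, adjusted p = 1.00), Ifi35 (0.15) and Rtp4 (0.16).

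Microglia gave the same result at lower counts. Of 30 members tested 0 were called by either tool, and 0% of 10932 genes were called. At an unadjusted p under 0.05 there were 0 members and 0.951% of all genes. Isg15 had a lowest, median and highest value of 16.3, 23.1 and 38.2 CPM in R182C-TgN3 and 17.9, 22.4 and 40.9 CPM in WT-TgN3 mice, which overlap almost fully, and its log2 difference was 0.02 with an interval from -0.47 to 0.50. Ifit3 ran from 4.86 to 11.1 CPM against 3.16 to 16.4 CPM, a difference of -0.40 with an interval from -1.12 to 0.32. The smallest p-values were those of Oasl1 (-0.79 ± 0.43, adjusted p = 1.00), Ifit1 (-0.47) and Lgals3bp (0.19). In 27 of the 30 members the interval lay within a 2-fold difference, and it reached beyond it for Oasl1, Ifit1 and Ifit3. The study's methods set a control library aside for microglia without naming it, whereas all 5 WT-TgN3 libraries were kept here, and 0 members were called when any of them was left out.

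**Figure D5:**
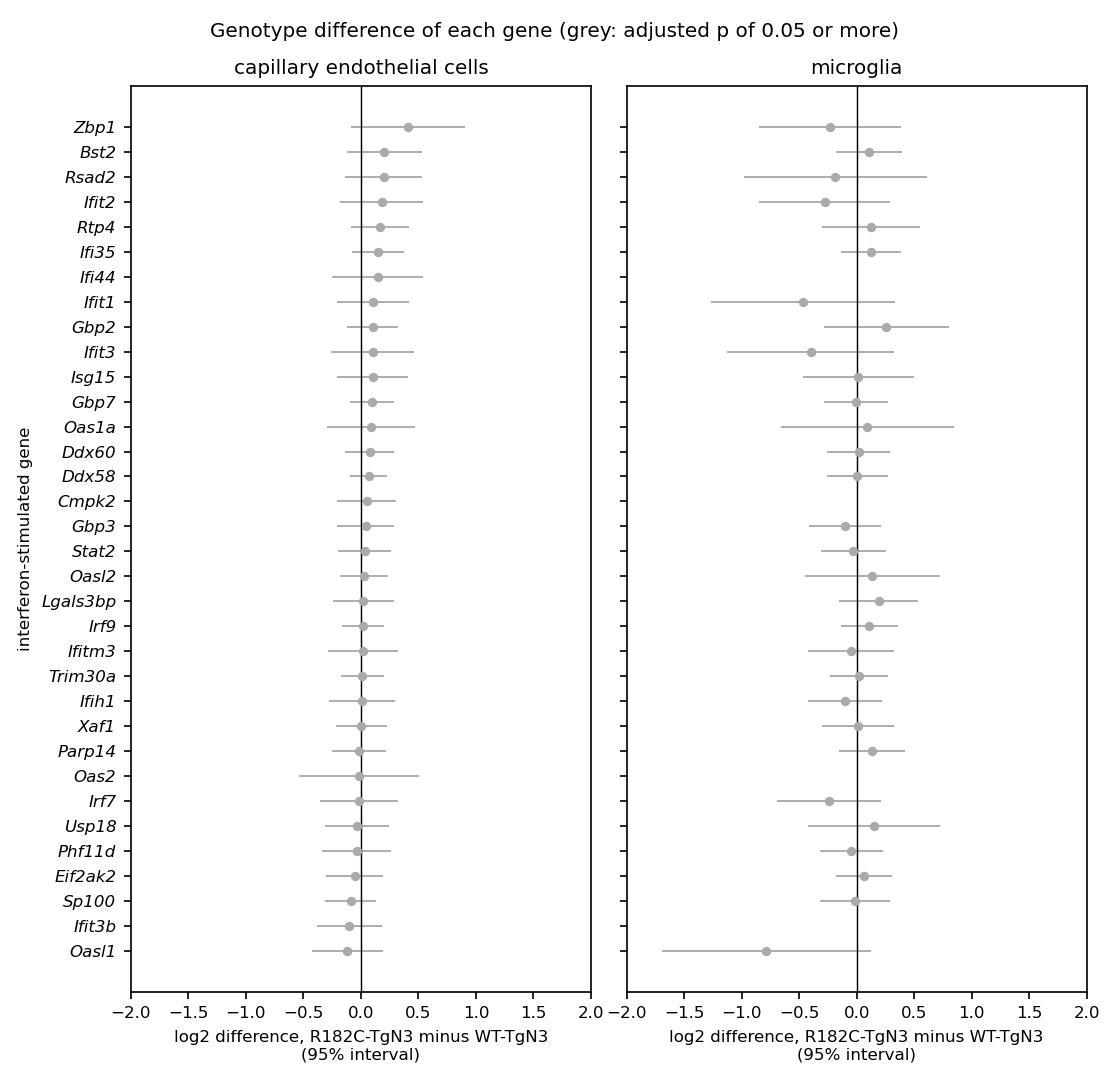
Log2 differences R182C-TgN3 minus WT-TgN3 of each tested member in capillary endothelial cells and microglia, with 95% intervals. No point passes an adjusted p of 0.05, and the intervals are wider in microglia, where Oasl1 reaches -0.79.

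In the other classes the tests also called 0 members, by edgeR and by DESeq2, of 34 tested in arterial, 34 in venous, 30 in fenestrated endothelial cells, 14 in SMC, 8 in lymphocytes and 1 in pericytes (Ifitm3, -0.04 ± 0.17). The background share called was 0% in the 3 endothelial classes and lymphocytes, 0.0115% in SMC and 0.0341% in pericytes, and DESeq2 gave the same shares. At an unadjusted p under 0.05 there were 0 members in any of these classes, against 1.38% of all genes in arterial, 1.61% in venous and 3.75% in fenestrated cells, 2.37% in SMC, 4.95% in pericytes and 3.42% in lymphocytes. Median log2 differences were 0.06 in arterial, 0.08 in venous and -0.04 in fenestrated cells, beside 0.00 over all genes. In perivascular macrophages, with 1 R182C-TgN3 and 2 WT-TgN3 mice, 0 of 17 members were called by either tool, against 0.498% of genes by edgeR and 0.0332% by DESeq2. Of the members only Ifitm3 had an unadjusted p under 0.05 there (-0.91 ± 0.46, adjusted p = 0.765 in edgeR's test), against 6.4% of all genes. Named by the smallest p elsewhere were Ifit3b, Oasl1 and Ifit1 in arterial, Ifit3b, Lgals3bp and Oasl1 in venous, and Sp100, Irf9 and Lgals3bp in fenestrated cells.

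The share of interferon-high cells was compared between the genotypes. In capillary cells it was 14.5% ± 3.61 in R182C-TgN3 (SD, n = 6) and 14.7% ± 2.96 in WT-TgN3 mice (n = 5), a difference of -0.148 percentage points (two-sided exact permutation test over 462 splits, p = 0.959). In microglia it was 0.513% ± 0.212 (n = 6) and 0.622% ± 0.407 (n = 5), a difference of -0.109 (exact permutation p = 0.608). Without R182C-TgN3 3, which was alone in its batch, and with permutation within batches over 72 splits, the difference was 0.255 percentage points in capillary cells (exact permutation p = 0.917) and -0.102 in microglia (exact permutation p = 0.694). Without WT-TgN3 5 the microglial difference was 0.0413 (exact permutation p = 0.781). After Benjamini-Hochberg adjustment over the 2 tests on all mice both permutation p-values are 0.959.

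No difference by age and no interaction was called. Between 9 and 6 months, 0 of 34 members were called in capillary cells by edgeR or DESeq2, against 1.37% and 2.25% of all genes, and 0 had an unadjusted p under 0.05, against 13.1% of all genes. In microglia 0 of 30 were called by either tool, against 0.659% of genes by edgeR and 2.1% by DESeq2, and 7 had an unadjusted p under 0.05, a share to be read beside the 14.2% of all genes that did. Isg15 was higher at 9 months by 0.56 ± 0.19 (unadjusted p = 0.0084, adjusted p = 0.173 in edgeR's test), Usp18 by 0.59 ± 0.24, and Eif2ak2 differed by -0.28 ± 0.10. Without R182C-TgN3 3, the 1 mouse of batch B, the Isg15 difference was 0.67 with an adjusted p of 0.0464. The interaction of genotype with age called 0 members in both classes by either tool, and 0 members had an unadjusted p under 0.05, against 3.26% of genes in capillary cells and 2.25% in microglia. DESeq2 called 0.0177% and 0.00868% of genes there. The genotype effect in microglia minus that in capillary cells also called 0 members and 0% of genes by either tool, and Ifit3b (-0.83) alone had an unadjusted p under 0.05, against 2.23% of genes.

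Single mice stood high across many members. WT-TgN3 5 had the highest share of interferon-high cells in capillary (19.1%), arterial (24.9%), venous (15.6%) and fenestrated cells (18.4%) and in microglia (1.22%). It also held the highest level of 21 of the 35 members in fenestrated cells, 10 in venous cells and 9 in microglia, but of 1 of 34 in capillary cells. R182C-TgN3 1 held the highest level of 11 of 34 members in capillary cells, of 10 in arterial cells and also of 10 in venous cells. R182C-TgN3 6 did so for 10 members in capillary, 9 in arterial and 8 in venous cells, and R182C-TgN3 5 for 9 in microglia. Whether mice with a high endothelial level also had a high microglial level was examined for 5 genes over 11 mice. Pearson's r ran from 0.32 (Bst2) to 0.51 (Ifit3) and Spearman's rho from 0.25 to 0.59, and none of the 5 relations passed (smallest adjusted permutation p = 0.290 for r and 0.273 for rho). Without the 2 mice farthest from the median r ran from 0.36 to 0.56, and with values centred within batch from 0.27 to 0.56.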

How the data were processed

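Gene-by-cell UMI counts were deposited by the authors, 1 library per mouse (11 mice), unnormalised. Per the submitters' processing notes they were made with Cell Ranger 7.0.0 on mm10; the study's methods add that the human NOTCH3 gene was appended to the reference, and that 10x Genomics 3′ libraries were sequenced. UMIs count the 3′ ends of transcripts, so levels of different genes are not compared per length.

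A barcode was kept if it had 500 genes or more and its mitochondrial counts were no more than 10%. Doublets were scored per library by similarity to simulated pairs (0.8% per 1000 barcodes) and removed. Cells were classed by marker genes, and the scoring rule for that was chosen after the cells were seen. The members and lists were chosen with earlier results of these data known. Counts were summed per mouse and class (at least 20 cells) and scaled to CPM for display. edgeR 4.0.16 (R 4.3.3; quasi-likelihood test, TMM scaling, its filter on low counts, Benjamini-Hochberg adjustment over all genes) was the test on counts, with the mouse as a block between classes and no covariate between genotypes, after ribosomal, mitochondrial, Gm and Rik genes were removed as in the study's methods. Age was fitted beside genotype. Genes named in the text are up to 6 per direction with the smallest adjusted p under 0.05, or else the 3 with the smallest p, plus Isg15, Ifit3, Irf7, Bst2, Ifitm3 and Stat2. DESeq2 1.42.0 was an alternative, as were other scaling, no filter, another gene minimum, doublets kept, Leiden clusters (scanpy 1.11.5) made without the members, batch and replicate terms, and leaving out each mouse. Scripts were tested on simulated data. The exact permutation tests on shares of interferon-high cells enumerated the splits with numpy 2.4.6, and scipy 1.17.1 held the count matrices. Intervals of log2 differences are at 95% and come from the quasi-likelihood fit, which includes the spread between mice. Limits on counts of 0 cover counting error only, at 3 counts.

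Between classes the mouse number marks the same animal. Between genotypes mice were paired by the labels' replicate number within an age, not by the numbers of the mouse names used here. Both mice of each of the 5 pairs also shared a preparation batch. Sex differed within every pair other than that of R182C-TgN3 6 and WT-TgN3 3, which were both female. Their deviations from group means correlated at 0.147 to 0.479 in microglia and at -0.0895 to 0.275 in capillary endothelial cells. The fit with the pair as a block was an alternative, and where it could be fitted it changed no genotype call of a member. Each mouse is a separate animal. The values of 1 gene of the pathway list are not reported here.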

Additional observations from a re-analysis of the deposited data

Results flagged for a closer look

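In groups of 4 to 6 mice, 1 mouse stood apart from the rest of its genotype in 7 of 100 groups examined, by a gap beyond Dixon's 95% critical value. These were the levels of 6 members in each genotype of 8 classes, perivascular macrophages having too few mice, and the shares of interferon-high capillary cells and microglia in each genotype. Chance gives about 1 in 20, and the groups share mice, so their flags are not independent of each other. 4 of the 7 were WT-TgN3 5, the mouse with the highest shares of interferon-high cells: Irf7 at 102 CPM in arterial cells (other WT-TgN3 mice 70.2 to 78.5), Irf7 at 36.7 CPM in venous cells (19.5 to 24.5), Bst2 at 220.1 CPM in venous cells (138 to 155) and Bst2 at 509 CPM in fenestrated cells (277 to 315). Irf7 is among the core members, so its level and the share of interferon-high cells in a class are not separate observations. Ifit3 was at 11.1 CPM in microglia of R182C-TgN3 6, where the other R182C-TgN3 mice had 4.86 to 7.03. Ifitm3 was at 797 CPM in pericytes of WT-TgN3 4 (others 528 to 585). Irf7 was at 8.17 CPM in lymphocytes of WT-TgN3 2, where the other WT-TgN3 mice had 21.2 to 23.9.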

How the results depend on the processing

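Most values kept their direction and their side of the threshold, and 0 members were called between genotypes in the settings that were run, which for macrophages (1 R182C-TgN3 mouse) and pericytes (1 member tested) says nothing about stability. Without the replicate block, which ties classes of the same mouse, arterial cells had 20 members higher and 1 lower than capillary cells, and venous cells 2 higher and 16 lower. With the replicate block between genotypes no member was called and pericyte Ifitm3 stood at 0.054. In SMC against pericytes, 2 members were higher and 17 lower with no filter on low counts, and 0 and 12 with Leiden clusters, which also gave 5 members lower in lymphocytes than in microglia. The genotype difference in the share of interferon-high capillary cells turned to 0.0679 at 1000 UMIs, 1.74 with no thinning, 0.255 within batches and 0.457 with Leiden clusters, and in microglia to 0.00717 with at least 2 and 0.0149 with at least 4 core members. Small genotype differences in single genes turned sign: microglial Ifit1 to 0.13 with doublets kept, macrophage Ddx60 to 0.14 and lymphocyte Gbp7 to 0.23 with Leiden clusters, and pericyte Ifitm3 to 0.035 with no filter and 0.037 with batch as a term. With 1 mouse left out, members higher in macrophages ran from 10 (without WT-TgN3 4) to 23, members lower in SMC from 3 (without WT-TgN3 1) to 7, members called for age in microglia from 0 to 1, the capillary share difference from -1.02 to 0.962, the microglial one from -0.234 to 0.0413 (positive without WT-TgN3 5), the genotype by age value of microglial Ifit3 from -1.63 to 0.43 (without WT-TgN3 5) and pericyte Ifitm3 from -0.14 to 0.091 (positive without R182C-TgN3 3 or WT-TgN3 4). The cause of each change was not tested. The genotype comparison in perivascular macrophages with the replicate block could not be fitted. Depth limits the comparisons of pericytes, macrophages and lymphocytes, where 1, 17 and 8 members had enough counts between genotypes.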

Other observations

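Outside the classes compared, levels were summed over all mice with no test. The 35 members took 2896 CPM in 105 fibroblasts, 1899 CPM in 118 erythroid cells, 632 CPM in 259 choroid plexus epithelial cells and 469 CPM in 251 neurons, which came from 1 mouse. The 11740 endothelial cells between subtypes had Isg15 at 184 ± 24.1 CPM and Irf7 at 46.8 ± 7.17 CPM (SD, n = 11).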
